A study of Mus musculus with 20 samples.

Results

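Foxo1, Foxo3, Foxp1, Klf2 and Klf3, a set of transcription factors tied to quiescence and trafficking of lymphocytes, were followed in B and T cells of transgenic mouse strains that can develop a disease like chronic lymphocytic leukemia (CLL). They are 5 of the 31053 genes counted. They were chosen by name after their levels in these libraries had been seen, so their levels by genotype and tissue are given as a description, with no test.

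Single-cell RNA-sequencing (scRNA-seq) was performed on unselected live cells of 13 mice in 20 libraries. Spleens came from 5 mice of the Eµ-PRMT5 strain, 4 of Eµ-TCL1 and 4 of Eµ-PRMT5/TCL1, and sub-mandibular lymph nodes from 3 of the Eµ-TCL1 and all 4 Eµ-PRMT5/TCL1 mice. All mice were labelled C57BL/6N, although the study's methods place the Eµ-TCL1 strain on C57BL/6 J, and all carried at least 1 human cDNA under a VH promoter and the IgH µ enhancer, which are active in B cells: PRMT5, an arginine methyltransferase, in Eµ-PRMT5 mice, TCL1, a co-activator of the kinase AKT, in Eµ-TCL1 mice, and both in Eµ-PRMT5/TCL1 mice. Every mouse was taken at the criteria for euthanasia, and no mouse without a transgene was among the libraries. The study bred several Eµ-PRMT5 founder lines, and apart from 1 Eµ-PRMT5 mouse labelled with the number of a founder the labels do not give the line of each mouse. Each node came from a mouse whose spleen was also measured, so 7 mice gave both tissues. T cells came from the same tissues.

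Cells were assigned by unique molecular identifiers (UMIs), which count captured RNA molecules. A B cell held at least 3 UMIs of Cd79a and Cd79b together, none of Cd3d, Cd3e and Cd3g, and fewer than 20 of Jchain, and a T cell held at least 2 UMIs of the Cd3 genes and none of the Cd79 genes. Total UMIs lay between 9348094 and 72440894 per library, and 688 to 7631 cells were kept. They included 195 to 5136 B cells per library (30890 in all) and 46 to 4299 T cells (27888 in all). Markers outside the gates fitted the labels: Pax5 lay between 20.2 and 109 CPM (the gene's UMIs relative to all UMIs of that class in the library) in B cells and was at most 0.949 CPM in T cells, and Trbc2 lay between 168 and 1270 CPM in T cells and was at most 2.90 CPM in B cells. The 7 B-cell markers, gate genes included, summed to 1040.05 to 6914 CPM in B cells and 0 to 18.4 CPM in T cells. The 7 T-cell markers summed to 1961 to 4975 CPM in T cells and 12.0 to 200 CPM in B cells, where Lck alone made up 7.99 to 191 CPM. Myeloid markers summed to 44.3 to 3299 CPM in B cells and 35.7 to 8282 CPM in T cells. Eµ-PRMT5 spleen 4 stood apart from the other libraries. Its B-cell marker sum was the lowest of all, 65.1% of its B cells were cycling against 0.407% to 19.6% elsewhere, and it held only 46 T cells. The spleen means of the 5 genes in the group, their fold changes, the list counts and the list genes given with CPM values in the cycling contrast are also given without it where it entered, and leaving it out moved no mean over all libraries of a class by more than 4.73%. The condition on Cd3 removed many Cd79-positive cells in several libraries. Of cells with at least 6 UMIs of the Cd79 genes, 1.52% to 71.0% carried a Cd3 UMI, most in Eµ-PRMT5 spleen 4, and the share was 63.5% in Eµ-PRMT5/TCL1 spleen 2, 60.9% in Eµ-TCL1 node 1, 56.2% in Eµ-PRMT5/TCL1 node 4 and 54.6% in Eµ-TCL1 spleen 1. With Cd3g alone dropped from the gate, Eµ-PRMT5 spleen 4 would have held 2362 B cells in place of 800. Barcodes shared by a pair of libraries numbered at most 68, where 64.6 were to be expected from the size of the barcode list.

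FOXO factors are held in check by the PI3K–AKT pathway: AKT phosphorylates them, 14-3-3 proteins (the Ywha genes) bind the phosphorylated form, and the factor leaves the nucleus. In lymphocytes FOXO1 drives Klf2 and the interleukin-7 receptor Il7r. KLF2 in turn keeps T cells quiescent and drives the egress receptor S1pr1. FOXO3 shares many targets with FOXO1, FOXP1 is needed in B-cell development and keeps naive T cells quiescent, and KLF3 is a repressor of the same family as KLF2. RNA levels do not show how much FOXO protein is in the nucleus.

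The genes lie apart in the genome (GRCm38, GENCODE vM21). Foxo1 (ENSMUSG00000044167) is at chr3:52268336-52353221 on the plus strand, and Klf2 (ENSMUSG00000055148) is at chr8:72319033-72321656 on the plus strand. Foxo3 (ENSMUSG00000048756) is at chr10:42181841-42276755 and Foxp1 (ENSMUSG00000030067) is at chr6:98925338-99522721, both on the minus strand, and Klf3 (ENSMUSG00000029178) is at chr5:64803388-64832901 on the plus strand. Because FOXO1 is known to drive Klf2, the 250 bases before the RefSeq start of each of these 2 genes are shown, 5′ to 3′ on the plus strand, from RefSeq on GRCm38.p6 at chr3:52268087-52268336 and chr8:72318812-72319061. The RefSeq start lies 1 base past the GENCODE start for Foxo1, 29 bases past it for Klf2 and 133 bases past it for Klf3, so that the end of the Klf2 and Klf3 windows falls inside the gene as GENCODE draws it. Capitals mark a match to a KLF motif.
Foxo1: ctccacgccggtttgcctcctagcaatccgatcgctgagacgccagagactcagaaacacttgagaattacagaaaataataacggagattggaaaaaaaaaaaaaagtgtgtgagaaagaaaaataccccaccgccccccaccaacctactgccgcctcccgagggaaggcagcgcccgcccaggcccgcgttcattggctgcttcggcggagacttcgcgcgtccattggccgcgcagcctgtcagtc
Klf2: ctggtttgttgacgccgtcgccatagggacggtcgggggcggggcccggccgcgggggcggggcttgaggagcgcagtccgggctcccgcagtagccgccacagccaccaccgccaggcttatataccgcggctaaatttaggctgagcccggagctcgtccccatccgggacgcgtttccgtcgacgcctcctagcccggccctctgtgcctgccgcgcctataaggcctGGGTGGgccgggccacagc
Both strands were searched. The forkhead motif GTAAACA, which on the opposite strand reads as TGTTTAC, was found in neither window, nor in the windows of Foxo3, Klf3 and the 3 starts of Foxp1, while 3.17% of all 32851 windows of this length held it. The KLF motif CCACCC, which on the opposite strand reads as GGGTGG and does not overlap the forkhead motif, was found once for Klf2, 19 bases before the RefSeq start and 10 bases past the GENCODE start, 3 times for Klf3, each past the GENCODE start, and at 2 of the 3 starts of Foxp1, but not for Foxo1 or Foxo3. It was held by 28.1% of all windows. GC content was 56% for Foxo1 and 71.2% for Klf2, against a median of 52.4% over all windows. These matches describe letters only.

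All 5 genes were detected in B and T cells of all 20 libraries, with very different numbers of UMIs behind them. In B cells Foxo1 rested on 80 to 6045 UMIs per library, Klf2 on 662 to 24290 and Foxp1 on 601 to 21612. Klf3 rested on 105 to 4223 UMIs and Foxo3 on only 20 to 531, so Foxo3 was the least precise of the set. As 3′ UMI counts are not per length, each gene is compared with itself across cells and not with the other genes.

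The mean level of Klf2 was lower in plasma cells than in B and T cells, described here with no test between the classes. Over all 20 libraries its level was 509 ± 265 CPM in B cells (SD, n = 20) and 453 ± 158 CPM in T cells (SD, n = 20). In Jchain-high plasma cells it was 61.4 ± 46.1 CPM (SD, n = 14 libraries with at least 20 such cells), and its range there, from 14.9 to 150 CPM, lay below the lowest B-cell library at 169 CPM. It overlapped the T-cell range, whose lowest library, Eµ-PRMT5 spleen 4, held 113 CPM, while the other T-cell libraries lay at 228.2 CPM or above. With immunoglobulin UMIs, which fill plasma cells, left out of the total, the plasma-cell level was 95.6 CPM. Myeloid cells held 329 ± 128 CPM of Klf2 (SD, n = 17). Foxo1 was lowest in another class, the myeloid cells. It reached 98.99 ± 63.1 CPM in B cells (SD, n = 20), 142 ± 48.8 CPM in T cells (SD, n = 20) and 90.9 ± 54.7 CPM in plasma cells (SD, n = 14), but 17.9 ± 13.6 CPM in myeloid cells (SD, n = 17). Foxp1 was 501 ± 139 CPM in B cells, 265 ± 118 CPM in plasma cells, 213 ± 75.8 CPM in T cells and 107 ± 47.5 CPM in myeloid cells, an order in which plasma and T cells did not differ beyond their spread. Without immunoglobulin UMIs the plasma-cell level of Foxp1 was 434 CPM and that of Foxo1 was 149 CPM. Klf3 ran highest in T cells among the classes with many libraries, at 147 ± 51.6 CPM, then 99.8 ± 21.2 CPM in myeloid cells, 78.1 ± 28.2 CPM in B cells and 43.6 ± 14.5 CPM in plasma cells. NK cells aside, Foxo3 stayed between 13.5 ± 4.30 CPM in plasma cells and 18.4 ± 5.82 CPM in myeloid cells, so these classes did not differ beyond the spread. That order depended on the total: with immunoglobulin UMIs left out the plasma-cell level was 22.3 CPM for Foxo3, higher than the 18.5 CPM of myeloid cells on the same total, and 71.2 CPM for Klf3. NK cells were numerous enough in only 2 libraries, where Klf3 was 203 ± 72.3 CPM and Klf2 was 255 ± 31.3 CPM (SD, n = 2).

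In lymph node B cells Foxo1 was lower in Eµ-PRMT5/TCL1 than in Eµ-TCL1 mice. The Eµ-TCL1 nodes held 150, 165 and 236 CPM and the Eµ-PRMT5/TCL1 nodes held 43.7, 45.7, 38.6 and 31.99 CPM. Every Eµ-TCL1 node lay above every Eµ-PRMT5/TCL1 node, with means of 184 ± 46.0 CPM (SD, n = 3) and 40.0 ± 6.11 CPM (SD, n = 4). The log2 fold change was -2.15 ± 0.24 (SE), between -2.34 and -1.86 when any single library was left out. The gene was chosen on such levels, so the value carries no test. Over all genes, edgeR's quasi-likelihood test with Benjamini-Hochberg (BH) adjustment called 0 of 10892 (0%) in this comparison, 737 had an unadjusted p under 0.05, and DESeq2 called 65. Libraries of the node groups did not overlap for 685 of these genes (6.29%). Genes of plasma cells were among them: from Eµ-TCL1 to Eµ-PRMT5/TCL1 nodes the mean of Prdm1 went from 57.0 to 14.98 CPM, that of Xbp1 from 433 to 133 CPM and that of Sdc1 from 8.12 to 2.18 CPM. The sum of the 6 plasma-cell markers was 2021 to 2307 CPM in Eµ-TCL1 and 601 to 2341 CPM in Eµ-PRMT5/TCL1 node B cells, and the sum of the T-cell markers was 12.2 to 102 CPM and 74.9 to 200 CPM. The part of these markers in the Foxo1 values was not tested.

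In spleen the same direction was seen with overlapping groups. Eµ-TCL1 spleens held 56.8, 181, 102 and 193 CPM of Foxo1 in B cells, and Eµ-PRMT5/TCL1 spleens held 59.7, 51.9, 22.8 and 128 CPM. Eµ-PRMT5 spleens held 106, 120, 146, 33.7 and 67.7 CPM, the lowest being spleen 4. Eµ-TCL1 (133 ± 65.1 CPM, SD, n = 4), Eµ-PRMT5 (94.6 ± 44.2 CPM, SD, n = 5) and Eµ-PRMT5/TCL1 (65.5 ± 44.3 CPM, SD, n = 4) followed each other in that order, and no neighbours in it differed beyond their spread. Without spleen 4 the Eµ-PRMT5 mean was 109.8 ± 32.6 CPM (SD, n = 4), which left the order as it was. Against Eµ-TCL1 the log2 fold change was -1.20 ± 0.46 (SE) for Eµ-PRMT5/TCL1 and -0.63 ± 0.43 (SE) for Eµ-PRMT5, or -0.45 without Eµ-PRMT5 spleen 4.

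**Figure D1:**
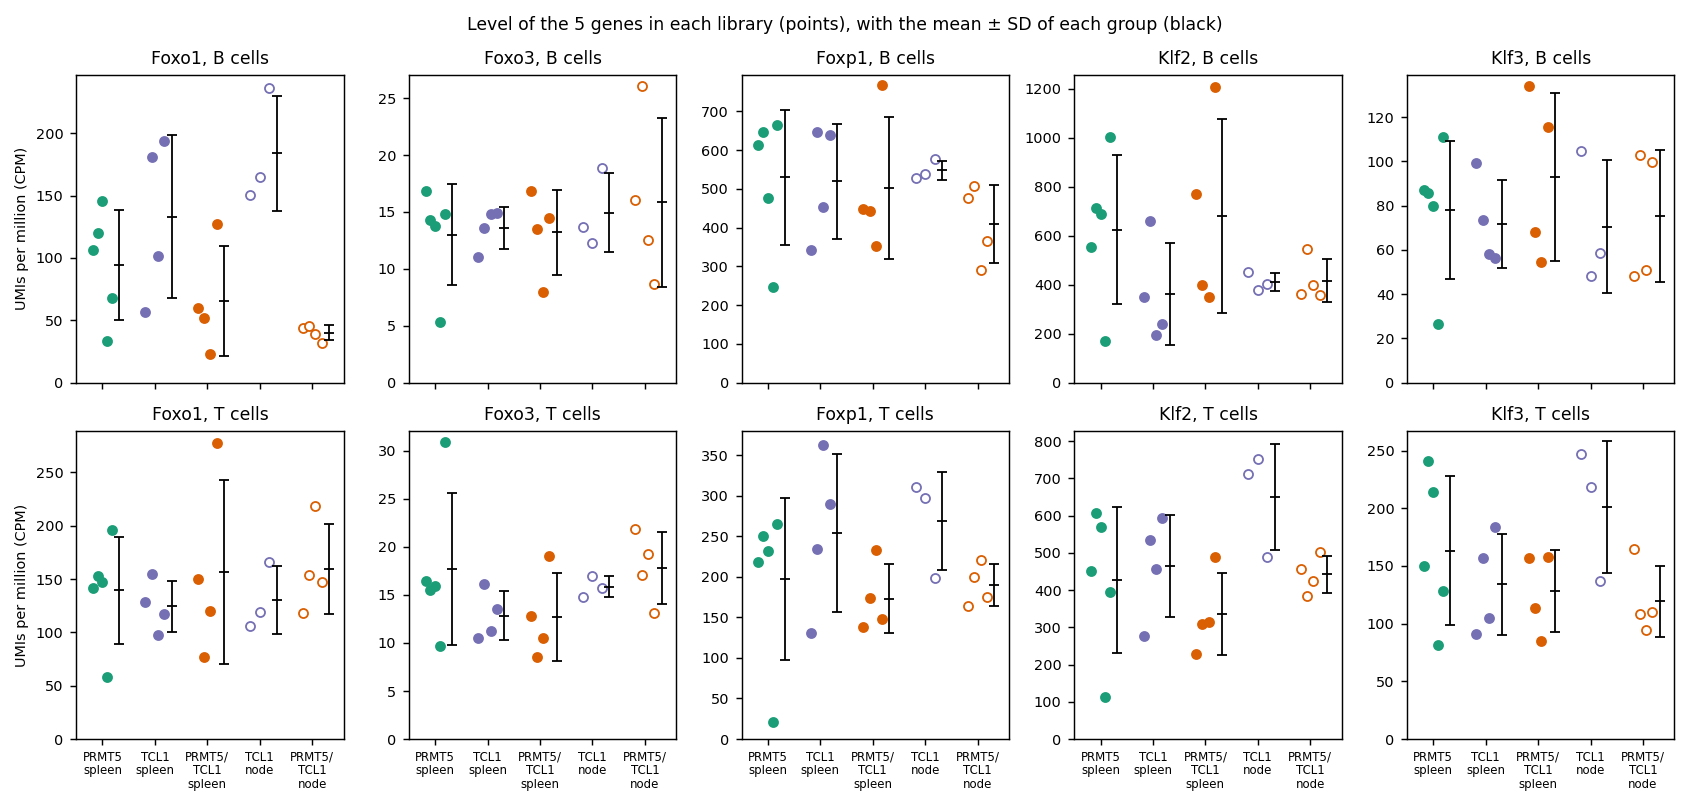
Level of each gene in CPM, on linear axes from 0, in B cells and T cells of the 20 libraries by genotype and tissue, with 1 point per library (filled for spleen, open for node) and the mean ± SD of each group in black. The 4 Eµ-PRMT5/TCL1 node points for Foxo1 in B cells, between 31.99 and 45.7 CPM, lie below the 3 Eµ-TCL1 node points, and the spleen groups overlap.

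Klf2 did not follow Foxo1 across the spleens. Its B-cell level was 553, 712, 688, 169 and 1002 CPM in Eµ-PRMT5 spleens, 351, 661, 195 and 239 CPM in Eµ-TCL1 spleens, and 770, 398, 348 and 1206 CPM in Eµ-PRMT5/TCL1 spleens. The lowest value was again Eµ-PRMT5 spleen 4, and all 3 groups overlapped. Against Eµ-TCL1 spleens the log2 fold change of Klf2 was 0.68 ± 0.47 (SE) in Eµ-PRMT5 spleens, 0.89 without spleen 4, and 0.75 ± 0.49 (SE) in Eµ-PRMT5/TCL1 spleens, where Foxo1 pointed the other way; these comparisons share the Eµ-TCL1 libraries. In nodes Klf2 was 452, 377 and 403 CPM in Eµ-TCL1 and 360, 544, 398 and 359 CPM in Eµ-PRMT5/TCL1 mice, and the log2 fold change was 0.10 ± 0.21 (SE). The node groups of Klf2 overlapped, unlike those of Foxo1.

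Foxo3 and Klf3 varied little between groups in B cells, whereas Foxp1 had a lower mean in Eµ-PRMT5/TCL1 than in Eµ-TCL1 nodes. Foxp1 was 529, 539 and 576 CPM in Eµ-TCL1 nodes and 477, 506, 290 and 366 CPM in Eµ-PRMT5/TCL1 nodes. These did not overlap, as was also so for 685 of all 10892 genes (6.29%), and the log2 fold change was only -0.36 ± 0.22 (SE). In spleen its group means were 529 ± 175 CPM (Eµ-PRMT5, SD, n = 5), 520 ± 148 CPM (Eµ-TCL1, SD, n = 4) and 502 ± 183 CPM (Eµ-PRMT5/TCL1, SD, n = 4). Without spleen 4 the Eµ-PRMT5 mean of Foxp1 was 599.9 ± 86.0 CPM (SD, n = 4). Klf3 group means lay between 70.4 ± 30.02 CPM in Eµ-TCL1 nodes (SD, n = 3) and 92.9 ± 37.8 CPM in Eµ-PRMT5/TCL1 spleens (SD, n = 4), and Foxo3 group means lay between 13.01 ± 4.46 CPM in Eµ-PRMT5 spleens (SD, n = 5) and 15.8 ± 7.44 CPM in Eµ-PRMT5/TCL1 nodes (SD, n = 4). Without spleen 4 the Eµ-PRMT5 means were 90.9 ± 13.8 CPM for Klf3 and 14.9 ± 1.33 CPM for Foxo3 (SD, n = 4). No pair of groups differed beyond its spread for either gene, with or without spleen 4. With Eµ-PRMT5/TCL1 set against Eµ-PRMT5 in spleen, the log2 fold changes of the 5 genes ran from -0.57 ± 0.44 (SE) for Foxo1 to 0.25 ± 0.33 (SE) for Klf3. Without spleen 4 they ran from -0.75 ± 0.42 (SE) for Foxo1 to 0.06 ± 0.28 (SE) for Klf3, and that of Klf2 went from 0.07 ± 0.46 to -0.14 ± 0.41 (SE).

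The pathway around these genes was described by 4 lists: other FOX and KLF factors, PI3K–AKT control of FOXO, FOXO and KLF2 target genes, and quiescence and antiproliferative genes. No gene of the lists passed edgeR's test with BH adjustment in any B-cell comparison of genotypes. For Eµ-PRMT5 against Eµ-TCL1 in spleen 0 of 87 tested list genes were called, and 0.026% of all 11541 genes were called. At an unadjusted p under 0.05 there were 13 list genes (14.9%) against 17.1% of all genes, and DESeq2 called 4 list genes and 691 genes in all. Without Eµ-PRMT5 spleen 4 edgeR called 2.69% of all genes and still 0 list genes, with 22 of 85 (25.9%) against 26.3% of all genes at an unadjusted p under 0.05, and DESeq2 called 14 list genes and 1707 in all. For Eµ-PRMT5/TCL1 against Eµ-TCL1 in spleen 0 were called by edgeR, against 0.00866% of all genes, with 3.45% of list genes and 4.54% of all genes at an unadjusted p under 0.05, and DESeq2 called 0 list genes and 27 genes in all. For Eµ-PRMT5/TCL1 against Eµ-PRMT5 in spleen 0 were called, against 0% of all genes, with 10.3% and 8.77% at an unadjusted p under 0.05, and DESeq2 called 0 and 127. Without spleen 4 this comparison gave 0 called list genes and 3 called genes in all, with 17 list genes (20%) against 17.6% of all genes at an unadjusted p under 0.05, and DESeq2 called 5 and 583. In nodes 0 of 84 were called, with 13.1% of list genes and 6.77% of all genes at an unadjusted p under 0.05, and DESeq2 called 1 and 65. The most abundant members show the spread behind these counts. Ccr7, the receptor that guides lymphocytes into nodes, averaged 628 CPM in Eµ-PRMT5, 157 CPM in Eµ-TCL1 and 182 CPM in Eµ-PRMT5/TCL1 spleens. Klf6 averaged 416, 146 and 219 CPM in the same order. Ypel3, a growth-restraining gene, averaged 302, 689 and 350 CPM there, and 307 CPM in Eµ-PRMT5/TCL1 against 647 CPM in Eµ-TCL1 nodes. Btg1 and Btg2, antiproliferative genes, averaged 572 and 245 CPM in Eµ-PRMT5 and 406 and 216 CPM in Eµ-TCL1 spleens, and Ywhaz averaged 877 and 816 CPM. Without spleen 4 the Eµ-PRMT5 means were 747 CPM for Ccr7, 499 CPM for Klf6, 356 CPM for Ypel3, 699 CPM for Btg1, 284 CPM for Btg2 and 974 CPM for Ywhaz. Clonality differed too. The leading Ighv gene, which marks the clone below, held 43.8%, 32.6% and 31.1% of Ighv UMIs for Eµ-PRMT5 spleens 1, 2 and 3. It held 95.1% and 70.3% for spleens 4 and 5. Among Eµ-TCL1 mice its share was 38.0% for spleen 3 and 94.3% to 99.9% for the other spleens. All Eµ-PRMT5/TCL1 spleens lay between 63.1% and 99.5%, and all nodes at 63.0% or above. The part of clonality in the B-cell comparisons of genotypes was not tested.

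Node and spleen of the same mouse answered whether the genes differ between tissues, and in B cells they did not do so in 1 direction. Foxo1 was 150 CPM in the node and 56.8 CPM in the spleen of the first Eµ-TCL1 mouse, 165 and 181 CPM in another, and 236 and 193 CPM in the last. The Eµ-PRMT5/TCL1 mice had 43.7 CPM in the node and 128 CPM in the spleen, 45.7 and 59.7, 38.6 and 22.8, and 31.99 and 51.9 CPM. Foxo1 was higher in the node in 3 of 7 mice, and the paired log2 fold change (node over spleen) was -0.01 ± 0.26 (SE). For Klf2 the node and spleen values were 452 and 351, 377 and 661, and 403 and 239 CPM in Eµ-TCL1 mice, and 360 and 1206, 544 and 770, 398 and 348, and 359 and 398 CPM in Eµ-PRMT5/TCL1 mice. The paired log2 fold change of Klf2 was -0.23 ± 0.25 (SE), and those of Foxo3, Foxp1 and Klf3 were 0.24 ± 0.16, -0.08 ± 0.13 and -0.21 ± 0.18 (SE). Of all genes 0.00911% were called by edgeR in this paired fit. Among the list genes 0 of 84 were called. At an unadjusted p under 0.05 there were 13 list genes (15.5%) against 11.2% of all genes, and DESeq2 called 5 list genes and 272 genes in all. The B-cell marker sum was lower in the node in 7 of 7 mice (medians 4792 and 5888 CPM), and the sums of T-cell and cycling markers were higher there in 6 of 7 mice each. Their part was not tested. Values of the abundant members were 288 CPM in node and 161 CPM in spleen for Ccr7, 185 and 198 CPM for Klf6, 453 and 481 CPM for Ypel3, and 1057 and 994 CPM for Ywhaz.

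**Figure D2:**
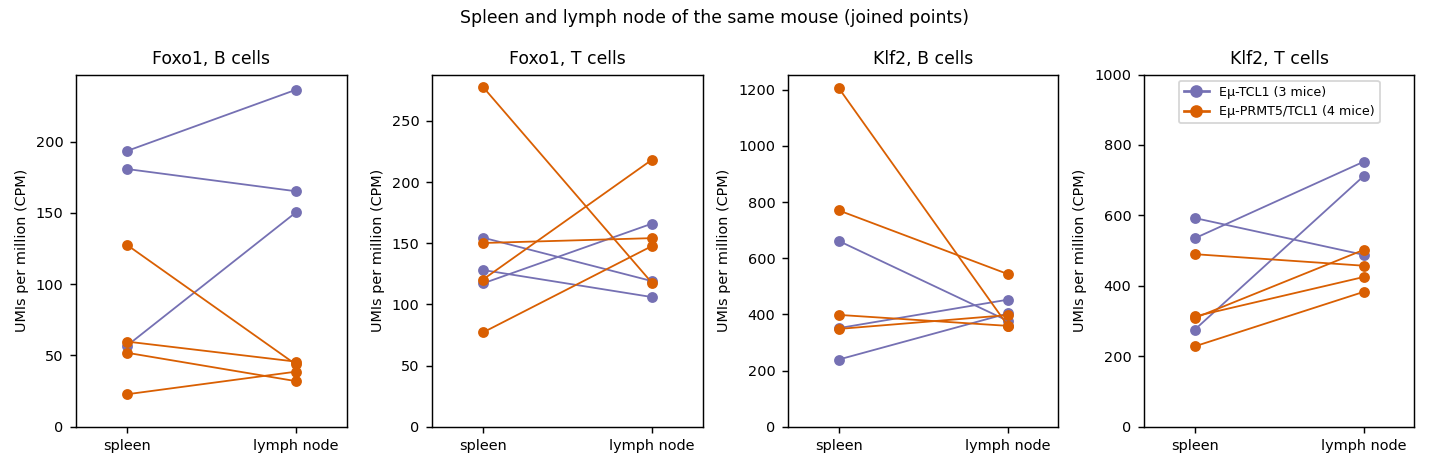
Level of Foxo1 and Klf2 in CPM, on linear axes from 0, in the spleen and lymph node of the same mouse, with 1 line per mouse coloured by genotype, for B cells and T cells. The Foxo1 lines of B cells run in both directions, with 3 of 7 mice higher in the node, and the Klf2 lines of T cells rise to the node in 5 of 7 mice.

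In T cells Foxo1 did not repeat the node difference seen in B cells. Its level was 106, 119 and 166 CPM in Eµ-TCL1 nodes and 118, 154, 218 and 148 CPM in Eµ-PRMT5/TCL1 nodes, which overlapped. Klf2 was 712, 753 and 488 CPM in Eµ-TCL1 nodes and 457, 383, 425 and 502 CPM in Eµ-PRMT5/TCL1 nodes, overlapping through a single library of each group. In the spleens Klf2 averaged 427 ± 195 CPM (Eµ-PRMT5, SD, n = 5), 465 ± 138 CPM (Eµ-TCL1, SD, n = 4) and 335 ± 110 CPM (Eµ-PRMT5/TCL1, SD, n = 4), and no groups differed beyond their spread. Without spleen 4 the Eµ-PRMT5 mean of Klf2 was 505 ± 98.3 CPM (SD, n = 4), the highest of the spleen groups and within the spread of both others. Foxp1 averaged 269 ± 60.8 CPM in Eµ-TCL1 nodes (SD, n = 3) and 190 ± 25.5 CPM in Eµ-PRMT5/TCL1 nodes (SD, n = 4). Klf3 averaged 201 ± 57.2 CPM and 119 ± 30.7 CPM in the same nodes. Both genes had lower means with both transgenes, and libraries of the groups overlapped for both.

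From spleen to node of the same mouse, the T-cell level of Foxo3 was higher in every mouse and that of Klf2 in most. Foxo3 was higher in the node in 7 of 7 mice, with a log2 fold change of 0.56 ± 0.16 (SE). All 7 mice went 1 way for 611 of all 10172 genes. Klf2 was higher in 5 of 7 mice, with values of 712 and 276, 753 and 535, and 488 and 593 CPM in node and spleen of Eµ-TCL1 mice, and 457 and 490, 383 and 228.2, 425 and 313, and 502 and 309 CPM in Eµ-PRMT5/TCL1 mice. The log2 fold change was 0.61 ± 0.20 (SE) for Klf2, 0.36 ± 0.19 for Foxp1, 0.29 ± 0.19 for Klf3 and 0.22 ± 0.26 for Foxo1. Over all genes edgeR called 0 of 10172 (0%), 1416 had an unadjusted p under 0.05, and DESeq2 called 417. Of the list genes 0 were called by edgeR. At an unadjusted p under 0.05 there were 12 list genes (14.6%) against 13.9% of all genes, and DESeq2 called 3 list genes. Markers of other cells moved between the same tissues: in these T cells the myeloid-marker sum was lower in the node in 7 of 7 mice (medians 65.3 and 1100.1 CPM), as was the NK-marker sum (225 and 283 CPM), and the cycling-marker sum was lower in 6 of 7 (239.6 and 425 CPM). Their part was not tested. The interleukin-7 receptor Il7r, a FOXO1 target, averaged 327 CPM in nodes and 224 CPM in spleens, Ccr7 594 and 498 CPM, and Klf13 126 and 97.0 CPM.

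Between genotypes the T cells of spleen gave a single called list gene. Klf4, a KLF factor best known from myeloid and stem cells, was 49.4 ± 26.1 CPM in Eµ-PRMT5 (SD, n = 5) and 6.65 ± 2.53 CPM in Eµ-TCL1 spleens (SD, n = 4), with a log2 fold change of 2.94 ± 0.42 (SE, edgeR, adjusted p = 0.0232). The libraries of the groups did not overlap for Klf4, nor for 247 of all 11048 genes, Klf4 included. The myeloid-marker sum in these T cells was 35.7 to 8282 CPM in Eµ-PRMT5 and 237 to 3381 CPM in Eµ-TCL1 spleens, and its part was not tested. The call was lost without any 1 of Eµ-PRMT5 spleens 1, 2 and 3 or of Eµ-TCL1 spleens 1, 3 and 4 (adjusted p = 0.159 without Eµ-TCL1 spleen 1), and held without Eµ-PRMT5 spleen 4 (3.04, adjusted p = 0.0409). Of all genes 0.0362% were called in this comparison, or 0.0273% without spleen 4, where the Eµ-PRMT5 mean of Klf4 was 53.5 ± 28.2 CPM (SD, n = 4). At an unadjusted p under 0.05 there were 11 of 83 list genes (13.3%) against 5.96% of all genes, and DESeq2 called 1 list gene and 24 genes in all. Without spleen 4 the shares were 14 of 83 (16.9%) and 9.37%, and DESeq2 called 3 list genes and 51 genes in all. For Eµ-PRMT5/TCL1 against Eµ-TCL1 in spleen 0 list genes were called by edgeR, as were 0% of all genes. At an unadjusted p under 0.05 there were 5 list genes (6.02%) against 6.81% of all genes, and DESeq2 called 0 list genes and 2 genes in all. The 5 genes themselves had log2 fold changes from -0.64 ± 0.53 (SE, Foxp1) to 0.14 ± 0.35 (SE, Foxo1) in the latter comparison and from -0.34 ± 0.50 (SE, Foxp1) to 0.59 ± 0.32 (SE, Foxo3) in the former. The Foxp1 value of the former rested on Eµ-PRMT5 spleen 4, which held 21.4 CPM from 11 UMIs while the other Eµ-PRMT5 spleens held 218 to 265 CPM. Without that library the values ran from -0.07 ± 0.31 (SE, Foxp1) to 0.70 ± 0.31 (SE, Foxo3), and that of Klf2 went from -0.13 ± 0.38 to 0.11 ± 0.25 (SE).

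Contrasts between cells of 1 library did not enter the rule that chose the genes, and these were tested. The first set cycling B cells, with at least 2 UMIs of Mki67 and Top2a together, against B cells with none, with the library as a block. It could be run in 9 spleens (26 to 521 cycling cells each) and 6 nodes (at least 25 each). The spleens were those of all Eµ-TCL1 and Eµ-PRMT5/TCL1 mice and, of the Eµ-PRMT5 mice, only spleen 4. Without spleen 4 the contrast held no Eµ-PRMT5 mouse. The mice of the 6 nodes were all among those of the 9 spleens, so the tissues were not independent. Klf2, Klf3, Foxo1 and Foxp1 made up a lower share of UMIs in cycling B cells in both tissues, and Foxo3 did not pass the test in either. In this contrast lower means a lower share (CPM). It does not mean fewer UMIs per cell, because cycling cells were also deeper, as given below.

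Klf2 had the largest estimated change of the set in both tissues. In spleen its lowest, median and highest levels were 125, 199 and 1045 CPM in cycling cells and 202, 425 and 1302 CPM in non-cycling cells. It was lower in cycling cells in 9 of 9 spleens, with a log2 fold change of -0.98 ± 0.12 (SE, edgeR, adjusted p = 1.77e-05). In nodes the values were 124, 222 and 313 CPM against 393, 440 and 580 CPM, so that the arms did not overlap, with a log2 fold change of -1.16 ± 0.14 (SE, 6 of 6 nodes lower, edgeR, adjusted p = 5.36e-05). Klf3 was 22.5, 45.3 and 93.0 CPM in cycling and 44.5, 74.6 and 141 CPM in non-cycling cells of spleen, a change of -0.78 ± 0.08 (SE, 9 of 9 lower, edgeR, adjusted p = 1.66e-06). In nodes Klf3 changed by -0.61 ± 0.18 (SE, 5 of 6 lower, edgeR, adjusted p = 0.0219), a call that was lost without Eµ-PRMT5/TCL1 node 1 (adjusted p = 0.0921), without Eµ-PRMT5/TCL1 node 4 (adjusted p = 0.101) and when both arms kept only cells above the library's median UMIs (-0.41, adjusted p = 0.0604).

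Foxo1 and Foxp1 were lower by smaller amounts. Foxo1 was 12.6, 48.6 and 126 CPM in cycling and 23.1, 63.8 and 204 CPM in non-cycling cells of spleen (lowest, median, highest), and lower in cycling cells in 9 of 9 spleens, although the ranges overlapped between mice. Its log2 fold change was -0.52 ± 0.13 (SE, edgeR, adjusted p = 0.0055) in spleen and -0.36 ± 0.10 (SE, 6 of 6 lower, edgeR, adjusted p = 0.0091) in nodes. Among cells above the library's median UMIs the spleen value was -0.41 (adjusted p = 0.0543), past the threshold no longer. Foxp1 changed by -0.42 ± 0.07 in spleen (SE, 9 of 9 lower, edgeR, adjusted p = 0.000173) and by -0.39 ± 0.08 in nodes (SE, 6 of 6 lower, edgeR, adjusted p = 0.000756). Foxo3 had a log2 fold change of -0.07 ± 0.12 (SE, 5 of 9 lower, edgeR, adjusted p = 0.676) and -0.29 ± 0.18 (SE, 3 of 6 lower, edgeR, adjusted p = 0.232), with 5.03 to 19.6 CPM in cycling cells of spleen. Without Eµ-PRMT5 spleen 4 the spleen values of Klf2, Klf3, Foxo1 and Foxp1 were -0.88, -0.73, -0.48 and -0.41, and each was still called, whereas Foxo3 was at -0.03 (adjusted p = 0.880, edgeR).

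**Figure D3:**
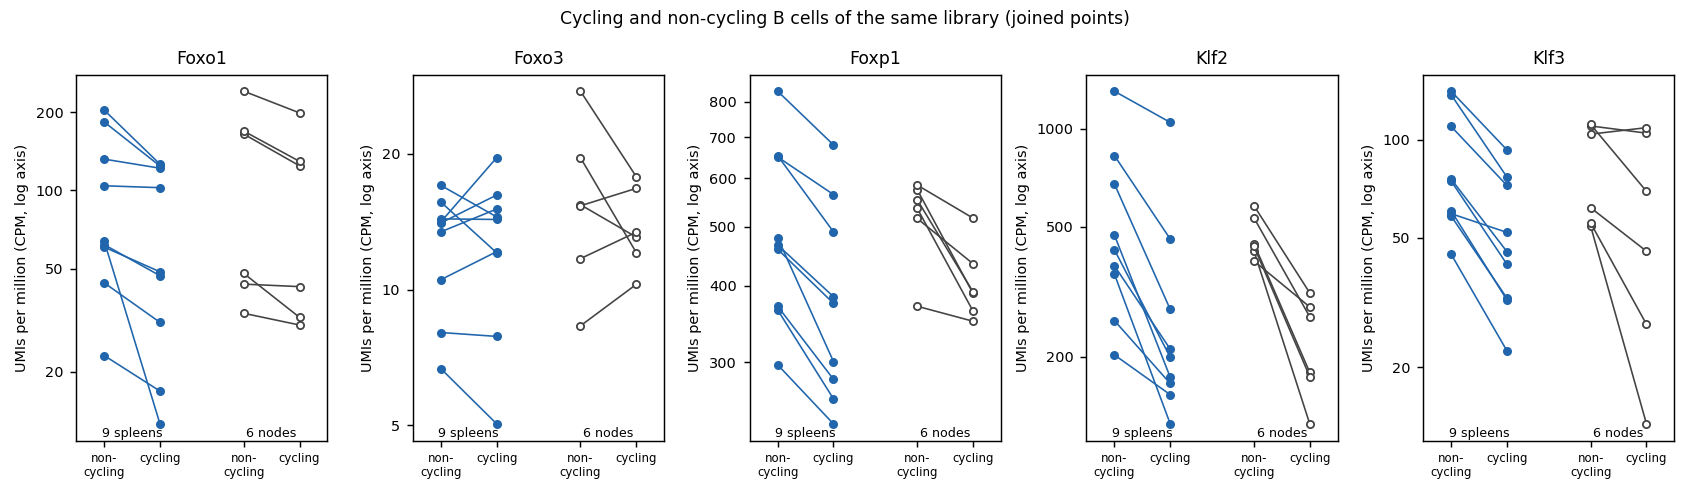
Level in CPM (log axis) of each gene in non-cycling and cycling B cells, with 1 line per library, for 9 spleens and 6 lymph nodes. The Klf2 lines all fall, from medians of 425 to 199 CPM in spleen and 440 to 222 CPM in node, whereas the Foxo3 lines run in both directions.

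The background of this contrast was wide, and the set is read against it. Of all genes 40.7% were called in spleen and 34.3% in nodes, and those called lower in cycling cells were 21.1% and 17.6%. Against these shares, 4 of the 5 genes were called lower in each tissue, and the median log2 change of all genes was -0.04 in spleen and -0.06 in nodes. Without Eµ-PRMT5 spleen 4, 39.6% of all genes were called in spleen and 20.1% were called lower. Cycling cells were deeper, with median UMIs of 10222 to 20993 per library against 4287.5 to 9864 in spleen and 8238 to 21820 against 4151 to 9486 in nodes. Summed B-cell markers were also lower in cycling cells, in 9 of 9 spleens (median 4029 against 6194 CPM) and 6 of 6 nodes (4006 against 5258 CPM), with 6 of 7 markers called lower in spleen and 4 of 7 in nodes. The myeloid-marker sum was higher in cycling cells of spleen (median 2209 against 438 CPM, lower in 3 of 9) and lower in those of nodes (51.0 against 137 CPM, in 6 of 6). The part of these in the result was not tested, beyond the fit to the deeper cells of both arms.

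Part of the list of FOXO and KLF2 target genes was also lower in cycling cells. In spleen 9 of 19 tested target genes were lower and 1 was higher, with a median log2 change of -0.37, and in nodes 7 of 17 were lower and 1 was higher, with a median of -0.34. Without Eµ-PRMT5 spleen 4 the counts in spleen were 9 lower and 3 higher, Bcl2l11 and Ccng2 among the latter, and the median was -0.28. S1pr1, the receptor for egress, changed by -1.10 ± 0.22 in spleen (SE, 114 to 58.8 CPM from non-cycling to cycling, 8 of 9 lower, edgeR, adjusted p = 0.00222) and by -1.06 ± 0.18 in nodes (SE, 81.4 to 38.4 CPM, edgeR, adjusted p = 0.000326). Among cells above the library's median UMIs the spleen change of S1pr1 was -0.82 and no longer called (adjusted p = 0.0962, edgeR). Txnip, which limits glucose uptake, fell from 312 to 151 CPM in spleen and from 300.1 to 184 CPM in nodes. S1pr4, Cd55 and the integrin subunit Itgb7 were each called lower in both tissues, Itgb7 from 199 to 103 CPM in spleen and from 155 to 71.7 CPM in nodes. Ccr7, Sesn1, Sesn3 and Fbxo32 were the other lower genes of spleen, and Txnip, Sesn1 and Irs2 those of nodes. Leaving out Eµ-PRMT5 spleen 4 gave spleen values of 123 to 64.2 CPM for S1pr1 (-1.06, edgeR, adjusted p = 0.0088), 337 to 164 CPM for Txnip and 212 to 113 CPM for Itgb7, all still called. The higher gene of nodes was Bcl2l11, a pro-apoptotic FOXO target (0.34 ± 0.12, SE, 6 of 6 higher, edgeR, adjusted p = 0.0338).

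Of the quiescence and antiproliferative genes 9 of 17 were lower in spleen and 3 were higher, with a median log2 change of -0.47, and in nodes 9 of 16 were lower and 2 were higher, with a median of -0.41. Without Eµ-PRMT5 spleen 4 the counts in spleen were 10 lower and 3 higher, with a median of -0.39. Btg2 changed by -0.94 ± 0.12 (SE, 9 of 9 lower, edgeR, adjusted p = 1.51e-05) in spleen and by -1.03 ± 0.10 (SE, 6 of 6 lower, edgeR, adjusted p = 5.19e-08) in nodes, and Btg1 fell from 431 to 267 CPM and from 501 to 290.4 CPM. Tob1, Tob2, Mxd4, Ypel3, Bach2, Ets1 and the inhibitor Cdkn1b were also called lower in both. The genes that rose were cell-cycle inhibitors: Cdkn2c from 3.49 to 23.3 CPM and Cdkn2d from 39.2 to 73.8 CPM in spleen, both also called in nodes, and Cdkn1a from 46.5 to 87.6 CPM in spleen. In spleen, and without Eµ-PRMT5 spleen 4, the change of Btg2 was -0.89, Btg1 went from 472 to 293 CPM, Cdkn2c from 1.87 to 23.3 CPM, Cdkn2d from 37.7 to 78.6 CPM and Cdkn1a from 44.3 to 88.5 CPM, and all 5 were still called. Cdkn1a was not called in nodes (-0.06, 3 of 6 higher, edgeR, adjusted p = 0.837).

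Of the other FOX and KLF factors 4 of 12 were lower in spleen (Klf6, Klf10, Klf16 and Foxp4, from -0.61 to -0.42) and 4 of 10 in nodes (Klf4, Klf16, Klf6 and Klf13), none was higher, and the medians were -0.34 and -0.32. Among genes of PI3K–AKT control 10 of 30 were lower and 3 higher in spleen (median -0.08), and 6 of 28 were lower and 2 higher in nodes (median -0.10). Without Eµ-PRMT5 spleen 4 the spleen counts were 4 lower for the former list, and 9 lower and 3 higher for the latter. The largest change there was that of Pik3ip1, an inhibitor of PI3K, from 39.4 to 16.4 CPM in spleen (-1.35 ± 0.13, SE, 9 of 9 lower, edgeR, adjusted p = 4.95e-07) and from 34.7 to 17.5 CPM in nodes (-1.16 ± 0.19, SE, edgeR, adjusted p = 0.00012). Pik3r1, Inpp5d and Ywhaz were lower in both tissues. Prmt1, the arginine methyltransferase that modifies FOXO1, was higher in both, from 116 to 165 CPM in spleen (9 of 9 higher) and from 91.4 to 120.5 CPM in nodes (5 of 6 higher). The spleen values without Eµ-PRMT5 spleen 4 were 43.8 to 18.3 CPM for Pik3ip1 and 115 to 146 CPM for Prmt1, and both were still called.

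**Figure D4:**
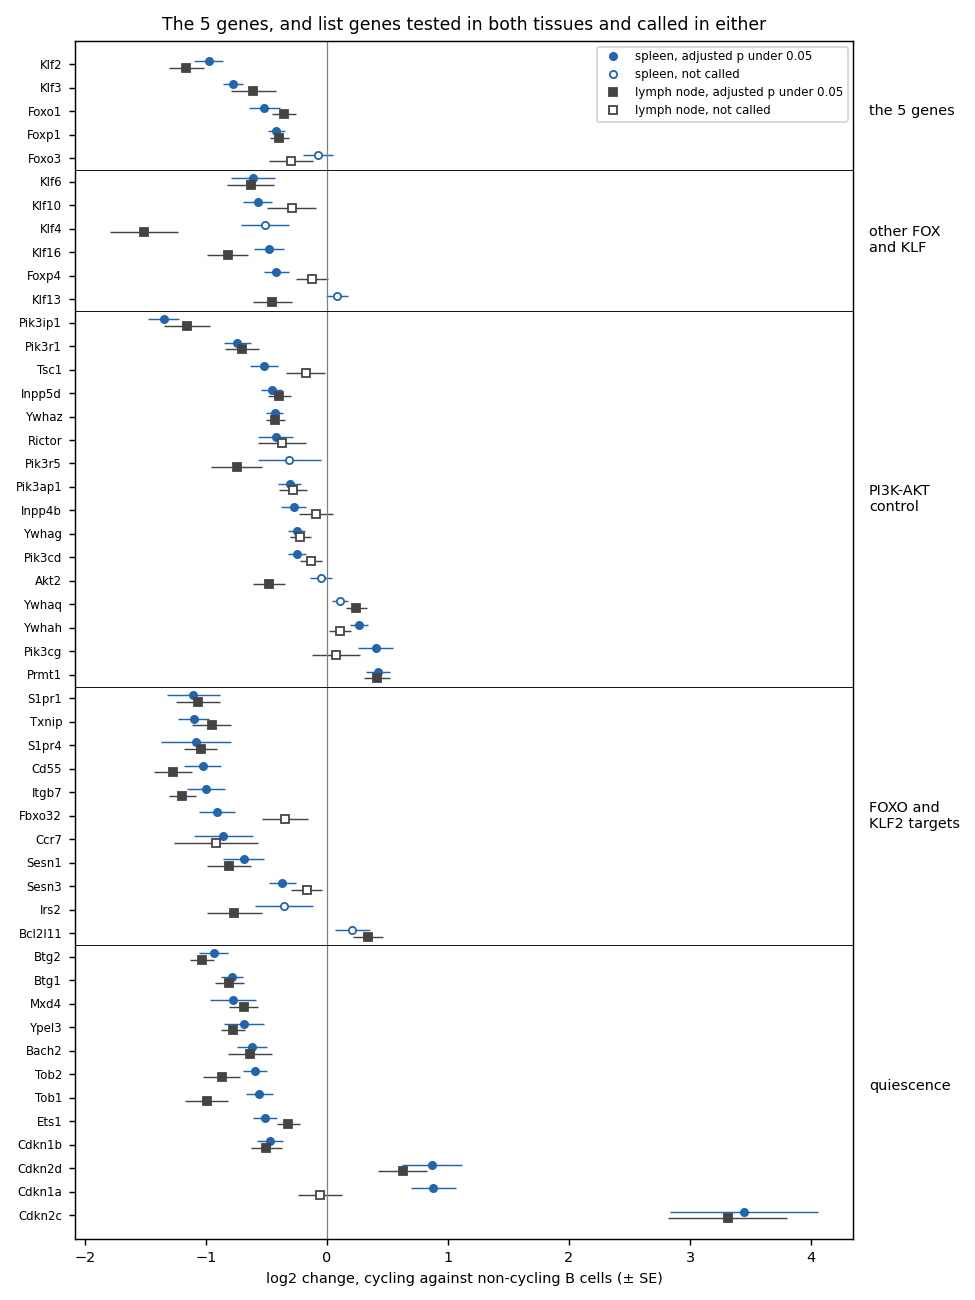
Log2 change of cycling against non-cycling B cells with its SE in spleen (circles) and lymph node (squares), for the 5 genes and for list genes tested in both tissues and called in either, with filled symbols for adjusted p under 0.05 (edgeR). Points left of 0 are lower in cycling cells, such as Klf2 at -0.98 and -1.16 and Pik3ip1 at -1.35 and -1.16, and Cdkn2c lies farthest to the right.

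The second contrast set B cells of the leading clone against other B cells of the same library, where the leading Ighv gene held at least 50% of Ighv UMIs and at least 20 cells stood on each side. That was so in 4 spleens and 3 nodes. None of the 5 genes was called by edgeR, and DESeq2 called none of them either. Foxo1 was 57.1 CPM in the clone and 136 CPM in other B cells of Eµ-PRMT5 spleen 5, and 61.4 and 62.1, 18.4 and 186, and 131 and 108 CPM in Eµ-PRMT5/TCL1 spleens 1, 3 and 4. In nodes it was 124 and 320 CPM in Eµ-TCL1 node 1, and 47.5 and 54.1, and 25.5 and 199 CPM in Eµ-PRMT5/TCL1 nodes 2 and 3. All 3 nodes went 1 way for 1830 of all 7148 genes. Foxo1 was lower in the clone in 3 of 4 spleens and 3 of 3 nodes. Its single-library differences ran from -3.27 to -0.02 on the log2(CPM + 1) scale where it was lower. The log2 fold changes were -0.97 ± 0.66 (SE, edgeR, adjusted p = 1.0) and -1.34 ± 0.44 (SE, edgeR, unadjusted p = 0.0162, adjusted p = 1.0). Without Eµ-PRMT5/TCL1 node 2 the node value was -1.91 (adjusted p = 0.0440), and with no filter on low counts it was -1.29 (adjusted p = 0.0116).

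Klf2 was lower in the leading clone in 4 of 4 spleens (medians 887 against 1058 CPM) and 3 of 3 nodes (446 against 693 CPM), with log2 fold changes of -0.25 ± 0.14 and -0.32 ± 0.27 (SE), neither of which was called. All libraries went 1 way for 1146 of all 9183 genes in spleen and for 1830 of 7148 in nodes. Foxp1, Klf3 and Foxo3 had changes from -0.58 ± 0.33 to 0.25 ± 0.41 (SE). edgeR called 0% of all genes in spleen, where 355 had an unadjusted p under 0.05 and DESeq2 called 5, and 0% in nodes, where the numbers were 311 and 8. Of the list genes 0 were called in either. At an unadjusted p under 0.05 there were 6 of 75 (8%) against 3.87% of all genes in spleen, and 10 of 65 (15.4%) against 4.35% in nodes. Ccr7 averaged 177 CPM in the clone and 365 CPM in other cells of spleen, and 300 and 627 CPM in nodes. In nodes the clone's cells had more of the summed T-cell markers (medians 118 against 24.4 CPM) and myeloid markers (242 against 73.9 CPM) in 3 of 3 libraries, whose part in these values was not tested.

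The third contrast was in T cells, where Ccl5, a chemokine of effector and memory cells, divided cells with at least 2 UMIs from cells with none in 8 spleens and 5 nodes. Foxp1 was higher in Ccl5-positive cells. In nodes it was 327 against 193, 304 against 180, 205 against 176, 231 against 137 and 184 against 113 CPM, higher in 5 of 5, with a log2 fold change of 0.87 ± 0.11 (SE, edgeR, adjusted p = 3.04e-05). In spleen it was higher in 7 of 8, with medians of 198 and 147 CPM, and the change of 0.74 ± 0.21 missed the threshold (SE, edgeR, adjusted p = 0.0515), although DESeq2 called it (adjusted p = 0.0216). Klf3 was called in spleen (0.51 ± 0.12, SE, 7 of 8 higher, medians 156 and 133 CPM, edgeR, adjusted p = 0.0170) and not in nodes (0.28 ± 0.13, SE, edgeR, adjusted p = 0.20). The Klf3 call in spleen was lost at little changed size without Eµ-PRMT5 spleen 3 (0.44, adjusted p = 0.0820), without Eµ-TCL1 spleen 1 (0.44, adjusted p = 0.0607) and among cells above the library's median UMIs (0.57, adjusted p = 0.200).

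The arms differed in their make-up of CD4 and CD8 cells. Cd4 was 6.43 CPM in Ccl5-positive and 119 CPM in Ccl5-negative cells of nodes, and Cd8a was 170 and 90.3 CPM. In spleen Cd4 was 29.7 and 144 CPM and Cd8a 201 and 73.8 CPM. Among CD8 cells alone (a UMI of Cd8a or Cd8b1 and none of Cd4) Foxp1 was 342 and 423, 214 and 259, 241 and 220, and 201 and 130 CPM in Ccl5-positive and Ccl5-negative cells of the 4 nodes, of the 5, that had enough of both, with 41 to 90 Ccl5-negative cells each. It was higher in 2 of these 4 nodes, with a log2 fold change of 0.07 (adjusted p = 0.933, edgeR). For Klf3 only 3 of the 8 spleens had enough CD8 cells of both kinds. It was 153 and 196, 130.1 and 88.6, and 154 and 109.9 CPM in them, higher in Ccl5-positive cells in 2 of 3, and those 2 held 21 and 20 Ccl5-negative cells. The change was 0.11 (adjusted p = 0.999, edgeR), which is not a like-for-like comparison with the fit to 8 spleens. The myeloid-marker sum reached 41200 CPM in Ccl5-negative cells of spleen against at most 6146 CPM in Ccl5-positive cells, and its part was not tested. Foxo1 (0.12 ± 0.12 and 0.07 ± 0.12, SE), Klf2 (-0.09 ± 0.14 and 0.07 ± 0.12) and Foxo3 (0.14 ± 0.22 and -0.11 ± 0.20) did not pass the test in spleen or nodes.

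**Figure D5:**
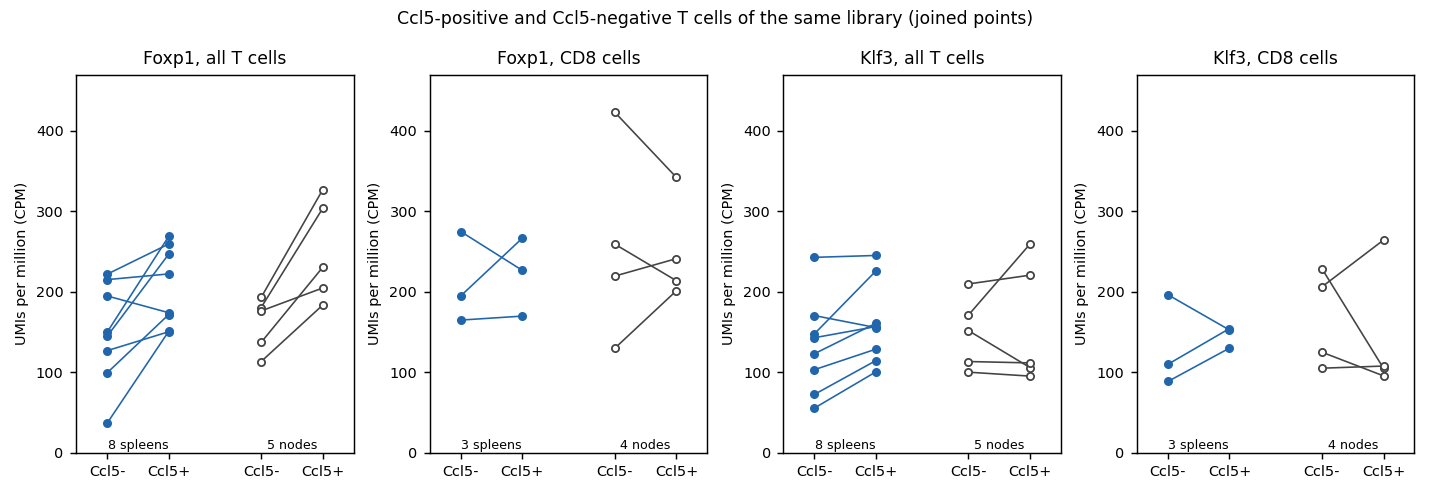
Foxp1 and Klf3 levels in CPM, on linear axes from 0, in Ccl5-negative and Ccl5-positive cells of each library, with 1 line per library (blue for spleen, grey for node), for all T cells and for CD8 cells alone. For Foxp1 all 5 node lines rise among all T cells, and 2 of 4 rise among CD8 cells, and for Klf3 7 of 8 spleen lines rise among all T cells.

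Of all genes 7.97% were called in spleen and 14.2% in nodes, and 4.79% and 7.52% were called higher in Ccl5-positive cells. All 8 spleens went 1 way for 601 of all 8656 genes, and all 5 nodes did so for 2675 of all 9181. Of the target list 5 of 20 genes were higher and 1 lower in spleen, and 5 of 21 were higher and 3 lower in nodes. Bcl2l11 changed by 1.77 ± 0.28 (SE, 8 of 8 higher, edgeR, adjusted p = 0.00439) in spleen and by 2.12 ± 0.14 (SE, 5 of 5 higher, edgeR, adjusted p = 2.25e-07) in nodes, and Cd55 and Cxcr4 were higher in both. Ddit4, a stress gene that restrains mTOR, was lower in both, from 156 to 32.3 CPM in nodes. Il7r was higher in nodes, from 218 to 338 CPM. Among genes of PI3K–AKT control 6 of 30 were higher and 1 lower in spleen, and 8 of 31 were higher and 1 lower in nodes. Rptor, Pik3r5 and the AKT-related kinase Sgk1 were higher in both, and Inpp4b, a phosphatase of PI3K products, was lower in both, from 135 to 22.5 CPM in nodes. Of the other FOX and KLF factors 2 of 10 were lower in spleen, and 4 of 11 were lower and 1 higher in nodes. Foxp3, the factor of regulatory T cells, and Klf4 were lower in both tissues, and the Klf4 calls were lost among CD8 cells alone, at a log2 change of -0.07 in 3 spleens (adjusted p = 0.999, edgeR) and of -1.19 in 4 nodes (adjusted p = 0.0623, edgeR). Foxp3 fell from 31.3 to 4.37 CPM in spleen and from 11.3 to 0.508 CPM in nodes. Of the quiescence genes 0 of 19 were called in spleen by edgeR. At an unadjusted p under 0.05 there were 5 of them, and 1820 of all 8656 genes (21%). In nodes 3 of 19 were lower (Cdkn2c, Rb1 and Tob2), Rb1 being at 0.18 among CD8 cells alone (adjusted p = 0.953, edgeR).

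Across the 13 spleens the genes with the B-cell pattern most like each factor were found by Pearson's r of log2 CPM among 5710 genes with a mean of at least 20 CPM. These values describe libraries that share depth and mix of cells, and carry no test. Klf2 was most like S1pr1 (r = 0.963), then Ndel1 (0.914) and Arhgap17 (0.912). Foxo1 was most like Ubn1 (r = 0.932), Gt(ROSA)26Sor (0.909) and Sfpq (0.906), and Foxp1 was most like Ppp3ca (0.926), Aff3 (0.914) and Rftn1 (0.908). Klf3 was most like Clcn3 (r = 0.948), and Foxo3 was most like Cds2 (r = 0.961). Among the 5 genes themselves Klf2 and Klf3 were the most alike (r = 0.825), and Foxo1 and Klf2 were little alike (r = 0.311). Over the 12 spleens without Eµ-PRMT5 spleen 4 a new search among 5757 genes again put S1pr1 first for Klf2 (0.971), Ubn1 for Foxo1 (0.921), Clcn3 for Klf3 (0.886) and Cds2 for Foxo3 (0.898). For Foxp1 it put Rhob first (0.892) and Ppp3ca next (0.885). Those among the 5 genes were 0.781 for Klf2 and Klf3 and 0.133 for Foxo1 and Klf2.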

How the data were processed

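Single-cell suspensions of spleen and sub-mandibular lymph node were profiled with 10x Genomics 3′ v2 chemistry. The deposited matrices hold raw UMI counts of each gene for every barcode, empty droplets included. The submitters' processing notes name Cell Ranger 2.0.1, Seurat 2.2.1 and GRCm38, whereas the matrix headers name version 3.1.0. Groups and replicate numbers were taken from the sample descriptions, and mice from the sample titles.

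Barcodes at or above the 99th percentile of UMIs of the 3000 largest barcodes, divided by 10, were called cells if they had 200 genes or more and 10% mitochondrial UMIs or fewer, and the expected number of doublets (0.8% per 1000 cells), those with the highest Scrublet scores, was removed, 4 to 533 per library. Scrublet's own threshold marked 0 to 298 per library, and 10 or fewer in all but 3 libraries. UMIs were summed per library and class. Plasma cells held at least 20 Jchain UMIs and no Cd3 UMI, NK cells at least 2 of Ncr1 and Klrb1c, and myeloid cells at least 3 of Tyrobp and Fcer1g. Comparisons used edgeR 4.0.16 (quasi-likelihood, TMM, filterByExpr) with BH adjustment over all genes and a threshold of 0.05, and DESeq2 1.42.0 as an alternative, in R 4.3.3, with Python 3.11.15 and scanpy 1.11.5. All 5 genes passed the filter in every fit. Fold changes are log2, with SE from the fit. Genes were named by rule: of each list, up to 6 called genes with the largest change, or the 3 of highest CPM where none was called. Genes named beyond these were chosen after their values were seen. Some named genes are not reported here. The scripts were tested on simulated data. Genes and lists were chosen with earlier results of these data known. Node and spleen were paired by mouse: deviations from group means correlated at 0.278 to 0.670 in B cells of 7 pairs, and at -0.0774 to 0.351 in T cells. Each library is 1 mouse and tissue, so p-values measure the spread between these mice.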

Additional observations from a re-analysis of the deposited data

Results flagged for a closer look

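Of 40 groups of 4 or 5 libraries checked for a library far from the others, 2 held one, and chance alone gives about 1 in 20. Both values came from Eµ-PRMT5 spleen 4. Foxo3 in its B cells was 5.31 CPM, the lowest of 5 Eµ-PRMT5 spleens, whose other values lay between 13.8 and 16.8 CPM. Foxp1 in its T cells was 21.4 CPM, the lowest of 5, whose other values lay between 218 and 265 CPM, and it rested on 11 UMIs from 46 cells.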

How the results depend on the processing

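The results were recomputed with DESeq2, with DESeq2's size factors, with no filter on low counts, with doublets kept, with stricter cell gates, with immunoglobulin genes left out of the total, among deeper or non-cycling cells, and without each library. Of the counts of called genes 168 values stayed within 1.5 times the main count and 24 did not. For single genes 2278 values were the same, 189 were weaker, as where a call was lost, 6 were stronger, 7 reversed and 2 moved. DESeq2 called 4 list genes in B cells of Eµ-PRMT5 against Eµ-TCL1 spleens, 1 between the nodes, 5 between the tissues in B cells and 3 in T cells, and 2 of the 5 genes in Ccl5-positive T cells of spleen, where edgeR called fewer. With no filter on low counts 1 list gene was called between the tissues in T cells, 1 of the 5 genes in the clone of nodes, and 2 in Ccl5-positive T cells of spleen and 2 in those of nodes. Among CD8 cells 0 of the 5 genes were called in either tissue, and 0 among deeper T cells of spleen, where edgeR called 1. Leaving out 1 library gave 0 to 1 called list genes between the tissues in B cells (1 without the mouse of Eµ-PRMT5/TCL1 spleen 4), 0 to 1 in T cells of Eµ-PRMT5 against Eµ-TCL1 spleens, 0 to 1 of the 5 genes in the clone of nodes and 0 to 2 in Ccl5-positive T cells of spleen. With immunoglobulin genes left out of the total, plasma cells held 149 CPM of Foxo1, 22.3 of Foxo3, 434 of Foxp1 and 71.2 of Klf3. Among CD8 cells Txnip (-0.0558) and Pik3cd (-0.63) reversed in spleen, and Klf7 (-0.21), Pik3cd (-0.21), Rb1 (0.18) and Pik3ip1 (-0.23) in nodes, as did Ccr7 among deeper T cells of nodes (0.20); the cause was not tested.

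Replicate numbers shared by genotypes came from different mice and did not pair them: same-numbered spleens correlated at -0.111 to 0.158 in B cells and -0.338 to 0.422 in T cells, and same-numbered nodes at -0.161 to 0.278 and -0.0296 to 0.591. With the replicate block 0 list genes were called in T cells of Eµ-PRMT5 against Eµ-TCL1 spleens, Klf4 having an adjusted p of 0.115 (edgeR), and the block changed no other count. Leaving the mouse out of the tissue fits changed no count. A B gate that dropped Cd3g and required no UMI of Trac, Trbc1 and Trbc2 was added after seeing the data, and left every count within 1.5 times. The levels, likeness and list counts without Eµ-PRMT5 spleen 4 were also added after seeing the data. Depth limited Foxo3 most, at 5 to 698 UMIs per library in T cells, and the clone contrast rested on 3 nodes.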
